A study of Arabidopsis thaliana with 12 samples.

Results

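The interaction of genotype with salt in Arabidopsis thaliana rosette leaves is the salt change in leaves that overexpress ERF34 minus the salt change in wild-type leaves. It was taken from the counts of all 12 libraries over every named gene, 33597 of the 33604 entries in the table, and 18886 of these genes passed the filter on low counts and were tested. A value below 0 on the log2 scale means that the salt change of overexpressor leaves lay below that of wild-type leaves, and a value above 0 that it lay above. The groups, with 3 libraries each, were overexpressor leaves with salt (OX salt), overexpressor mock leaves (OX mock), wild-type leaves with salt (WT salt) and wild-type mock leaves (WT mock). The overexpressor was a single transgenic line, #1, in the Col background, which carried the ERF34 coding sequence with an N-terminal GFP tag behind the viral CsVMV promoter. The wild type was Col without the transgene. Plants were kept at 22 °C in days of 16 h light and 8 h dark, and rosette leaves 3 and 4 were sampled. Salt-treated leaves were detached at 16 DAE and floated for 1 day on 3 mM MES at pH 5.8 with 100 mM NaCl. The labels attach that same protocol, NaCl included, to the mock libraries and describe no separate mock step, so whether mock leaves were of that age and were detached and floated on MES is not stated, and a salt change can include those steps in each genotype. With 1 line, effects of ERF34 and of that line's insertion cannot be told apart. The series concerns a role of ERF34 as a brake on salt-induced leaf senescence.

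The ERF34 protein belongs to the plant AP2/ERF group of transcription factors, whose members bind short promoter elements and take part in responses to ethylene, drought, cold and salt. Salt stress draws water from leaf cells and loads them with sodium. Leaves answer with abscisic acid signalling, protective proteins, an adjusted protein-folding capacity of the endoplasmic reticulum (ER) and, as stress goes on, with senescence, in which chlorophyll and the photosynthetic apparatus are dismantled and nitrogen is moved out. WRKY factors, salicylate and N-hydroxypipecolate (NHP) signals and the phytoalexin camalexin belong to defence, and parts of that programme are also switched on in senescing leaves.

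The libraries held 10425430 to 12704898 counts over named genes in overexpressor leaves and 14301312 to 18398594 in wild-type leaves, so every overexpressor library was shallower than every wild-type library. ERF34 transcripts were raised in every overexpressor library. They stood at 768, 1028 and 1006 counts-per-million (CPM, with TMM-scaled library sizes) in OX salt and at 998, 1073 and 1081 CPM in OX mock, against 16.4, 5.94 and 16.7 CPM in WT salt and 9.57, 2.96 and 13.9 CPM in WT mock. Its own interaction was -0.73 on the log2 scale (SE 0.67, edgeR adjusted p = 0.725). Markers of root, flower and meristem summed to 0.373 to 3.25 CPM in OX salt, 0.39 to 0.866 in OX mock, 0.529 to 1.51 in WT salt and 0.371 to 0.644 in WT mock, which is near absence in each group. Transcripts of the light-harvesting and photosystem group, which mark leaf mesophyll, summed to 72800 to 87300 CPM in OX salt and 75000 to 96600 CPM in OX mock. They summed to 58000 to 67700 CPM in WT salt and 90300 to 95000 CPM in WT mock. The group also holds RCA, the Rubisco activase gene. In these bulk samples, fewer cells of a type and less RNA per cell cannot be told apart.

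Salt moved fewer genes in overexpressor leaves than in wild-type leaves, and most genes moved the same way in both. Salt changed 3449 genes in the overexpressor (18.3% of those tested, with 1835 or 9.72% higher and 1614 or 8.55% lower) and 7814 in wild type (41.4%, with 3833 or 20.3% higher and 3981 or 21.1% lower) at an adjusted p under 0.05. Of the 2997 genes called in both genotypes, 2988 moved in the same direction, and the other 9 fell in the overexpressor and rose in wild type. A count of calls in each genotype is no test of the difference between them, and that test is the interaction. In edgeR's quasi-likelihood model of the 4 groups, 0 of 18886 genes (0%) passed an adjusted p under 0.05 for the interaction. The smallest adjusted p was 0.053. At an unadjusted p under 0.05 the model gave 2580 genes (13.7% of those tested), 1247 above 0 (6.6%) and 1333 below 0 (7.06%).

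The adjusted count for the interaction depended on the model and on single libraries. Same-numbered salt and mock libraries of a genotype deviated together in all 6 pairs (correlations of 0.132 to 0.401), and the number was therefore used as a block within genotype. Same-numbered libraries of different genotypes also correlated, at 0.102 to 0.323 between treatments and -0.025 to 0.73 within a treatment, so these values do not set pairing within a genotype apart from a number shared by all groups. With the block within genotype, 106 genes were called (0.561%), 14 above 0 (0.0741%) and 92 below 0 (0.487%). A block shared by all groups gave 111 above 0 and 268 below 0. Without a block, edgeR called 0 and 5 with DESeq2 size factors, and 0 and 8 without the filter on low counts. DESeq2 without a block called 187 genes above 0 and 472 below 0, limma-voom without a block called 0 and 0, and limma-trend on the deposited TMM values called 3 and 61. Without OX salt replicate 1 edgeR called 17 above 0 and 56 below 0, without WT salt replicate 1 it called 10 and 57, without WT mock replicate 2 it called 1 and 36, and without OX mock replicate 2 it called 0 and 6. Without any other library it called 0 in both directions. The names, values and gene groups below are therefore given as estimates with their errors. No gene in them passed edgeR's adjusted threshold for the interaction with all 12 libraries, TMM factors, the filter and no block. With DESeq2 all 20 of the genes of smallest p described below passed an adjusted p under 0.05, and with limma-voom 0 did.

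**Figure D1:**
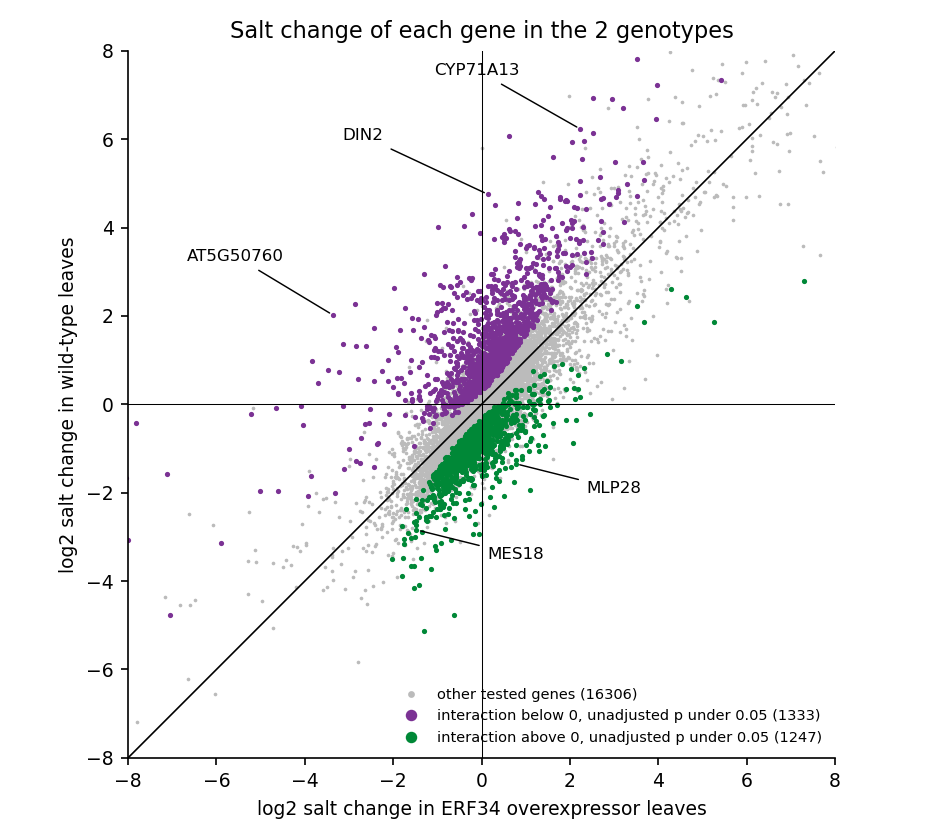
Each point is a tested gene, with its log2 salt change in overexpressor leaves on the horizontal axis and in wild-type leaves on the vertical axis, and the diagonal marks equal change. Purple points (1333 genes, interaction below 0) and green points (1247 genes, interaction above 0) have an unadjusted p under 0.05 and lie mostly where both genotypes moved the same way and wild type moved further; 51 genes lie outside the axes.

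Among genes at an unadjusted p under 0.05, as over all tested genes, the commonest form of the interaction was a smaller change in the overexpressor. Opposite changes were the commonest form among genes called below 0 with the block. Among the 1333 genes below 0 at an unadjusted p under 0.05, 883 (66.2%) had positive salt changes in both genotypes with the smaller one in the overexpressor. A further 388 (29.1%) had a negative change in the overexpressor and a positive one in wild type, and 62 (4.65%) had negative changes in both with the larger one in the overexpressor. Among the 1247 genes above 0, 812 (65.1%) had negative changes in both with the smaller one in the overexpressor, 377 (30.2%) had a positive change in the overexpressor and a negative one in wild type, and 58 (4.65%) had positive changes in both with the larger one in the overexpressor. Over all 18886 tested genes, on both sides of 0, 5113 (27.1%) had positive changes in both with the smaller one in the overexpressor. That form can only lie below 0, where it made up 5113 of all 8604 tested genes. Another 1573 genes there had a negative change in the overexpressor and a positive one in wild type. A further 5677 (30.1%) had negative changes in both with the smaller one in the overexpressor, a form found only above 0. Above 0, 2005 had a positive change in the overexpressor and a negative one in wild type. These shares of all genes therefore have another base than the 66.2% and 65.1%. On each side of 0 the smaller change was the commonest form over all tested genes too, so its lead is not particular to genes at an unadjusted p under 0.05. Of the 92 genes called below 0 with the block, 48 (52.2%) had a negative change in the overexpressor and a positive one in wild type, and 40 (43.5%) had positive changes in both with the smaller one in the overexpressor.

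The same pattern appeared when genes were chosen by the salt test of either genotype. The 1835 genes that rose in the overexpressor had a median log2 salt change of 1.14 there and 1.36 in wild type, and wild type moved further for 1159 of them (63.2%). The 1614 genes that fell in the overexpressor had medians of -0.81 there and -1.06 in wild type, with wild type further for 1136 (70.4%). Choosing by the wild-type test, which favours a larger change in wild type, gave 0.57 in the overexpressor and 1.08 in wild type for the 3833 genes that rose, and -0.47 and -0.91 for the 3981 that fell. The median interaction over all tested genes was 0.04 on the log2 scale.

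For most genes at an unadjusted p under 0.05, the genotype difference had opposite signs in salt and in mock. The interaction equals the genotype difference in salt minus that in mock. For the 1333 genes below 0, the median overexpressor minus wild-type difference was -0.65 in salt and 0.29 in mock, and the signs were opposite for 1122 of them (84.2%). For the 1247 genes above 0 the medians were 0.52 in salt and -0.18 in mock, with opposite signs for 1032 (82.8%). These genes were chosen by the contrast of the same differences, so the shares describe them and test nothing. Tested directly, 829 genes differed between the genotypes in salt (4.39%, with 390 or 2.07% higher and 439 or 2.32% lower in the overexpressor) and 19 in mock (0.101%, with 12 or 0.0635% higher and 7 or 0.0371% lower).

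The 10 genes with the smallest interaction p below 0, among genes that reached 5 CPM in a group, included receptors and defence enzymes. Their adjusted p ran from 0.053 to 0.0689, and 9 of the 10 were called with the block within genotype. In all 10, each of the 3 salt changes taken within a replicate number was lower in the overexpressor than each of the 3 in wild type. This was so for 11.4% of all tested genes, but the 10 were chosen by the same contrast, so their count describes them and tests nothing.

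The promoters of AT2G39530, RABA1e and AT3G51330 (interaction below 0) and of MES18 (above 0) are shown because these genes lead the 2 directions and no other annotated gene lies in their window. Each is the 250 bases before the annotated gene start in the RefSeq assembly TAIR10.1, written 5′ to 3′ in the direction of the gene. Capitals mark matches on either strand to 5 short motifs, TTGAC (the core of the W-box that WRKY factors bind), CCGAC (the core of the DRE bound by DREB factors), GCCGCC (the GCC-box bound by ERF factors), ACGTG (the core of the abscisic acid response element) and AAATATCT (the evening element of clock genes).
AT2G39530, chr2:16499525-16499774, minus strand: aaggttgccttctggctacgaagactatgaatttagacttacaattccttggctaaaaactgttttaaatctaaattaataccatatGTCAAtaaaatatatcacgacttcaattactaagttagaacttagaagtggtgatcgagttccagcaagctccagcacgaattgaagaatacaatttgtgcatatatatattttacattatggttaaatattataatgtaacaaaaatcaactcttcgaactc
RABA1e, chr4:10185384-10185633, minus strand: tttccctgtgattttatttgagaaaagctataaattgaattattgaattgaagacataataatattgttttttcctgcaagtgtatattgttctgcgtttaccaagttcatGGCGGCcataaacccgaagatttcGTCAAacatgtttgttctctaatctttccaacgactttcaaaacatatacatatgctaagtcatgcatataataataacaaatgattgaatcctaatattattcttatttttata
AT3G51330, chr3:19056448-19056697, minus strand: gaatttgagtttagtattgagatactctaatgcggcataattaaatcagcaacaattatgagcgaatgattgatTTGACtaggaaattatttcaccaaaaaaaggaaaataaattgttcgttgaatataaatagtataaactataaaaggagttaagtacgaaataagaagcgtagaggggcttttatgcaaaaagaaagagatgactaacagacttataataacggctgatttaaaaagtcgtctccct
MES18, chr5:23576085-23576334, minus strand: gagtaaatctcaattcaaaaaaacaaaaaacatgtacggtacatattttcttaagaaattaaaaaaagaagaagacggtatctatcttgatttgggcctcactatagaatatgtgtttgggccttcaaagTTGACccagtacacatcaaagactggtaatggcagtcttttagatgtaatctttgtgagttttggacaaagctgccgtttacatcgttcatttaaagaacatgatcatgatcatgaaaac
The first of these holds a single W-box core, 163 bases before the start on the reverse strand. The RABA1e window holds a GCC-box 139 bases and a W-box core 115 bases before the start. The AT3G51330 window holds a W-box core 176 bases before it, and the MES18 window a W-box core 120 bases before it. CRR3, next above 0 by p, has a window free of other genes and of all 5 motifs and is not shown. Of the 10 genes of smallest p, 6 held a W-box core below 0 and 4 of 10 above 0. A W-box core is common, at 45.3% of the promoters of all 18758 tested nuclear genes of chromosomes 1 to 5 with a window, and a match is no evidence of binding. It was found in 56.2% of the 1333 genes below 0 at an unadjusted p under 0.05 and in 39.4% of the 1234 above 0 with a window. Genes that rose with salt in wild type held it in 53.1% and genes that fell in 39.3%, so its share went with the direction of the wild-type salt change as well. The DRE core was in 11.4% of promoters of genes below 0, 13.9% of those above 0 and 13.1% of all, and the GCC-box in 2.7%, 1.62% and 2.06%. The abscisic acid element core was in 28.4% of promoters of genes below 0, 21.3% of those above 0 and 23.7% of all, and in 25.2% of genes that rose and 23.8% of genes that fell with salt in wild type. The evening element was in 4.35%, 6.65% and 5.1% of genes below 0, above 0 and in all.

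AT2G39530 encodes an uncharacterised membrane protein of the UPF0497 family and had the smallest p. It stood at 15.1, 17.1 and 22.1 CPM in OX salt and 25.3, 13.8 and 22.5 CPM in OX mock, against 36.6, 32.4 and 36.9 CPM in WT salt and 4.95, 6.25 and 7.68 CPM in WT mock. The overexpressor groups overlapped, whereas every WT salt library lay above every other library. Its interaction was -2.67 (SE 0.33, adjusted p = 0.0530, 0.0295 with the block), and it was also called higher in the overexpressor in mock (log2 1.71, adjusted p = 0.0300) and lower in salt (log2 -0.96, adjusted p = 0.0433).

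RABA1e, a small GTPase of the group that directs vesicle traffic, moved in opposite directions. It fell to 2.46, 2.11 and 1.8 CPM in OX salt, against 7.27, 7.9 and 9.53 CPM in OX mock (3.85-fold, adjusted p = 0.0031). It rose to 9.48, 14.7 and 10.5 CPM in WT salt, against 3.1, 6.89 and 4.02 CPM in WT mock (2.48-fold, adjusted p = 0.0039). Salt and mock did not overlap in either genotype, and the interaction was -3.25 (SE 0.41, adjusted p = 0.0530, 0.0121 with the block). The chitinase family gene AT1G02360 and the SAUR-like gene AT5G50760, from a family induced by auxin, behaved alike. AT1G02360 had 6.79, 6.51 and 10 CPM in OX salt and 43.1, 24.1 and 43.3 CPM in OX mock, against 22, 36.4 and 27 CPM in WT salt and 15.8, 21 and 13.9 CPM in WT mock. It fell 4.74-fold in the overexpressor (adjusted p = 0.0013) and rose 1.68-fold in wild type (adjusted p = 0.049), with an interaction of -3.00 (SE 0.40, adjusted p = 0.0530, 0.0121 with the block). AT5G50760 had 0.224, 0.352 and 0.82 CPM in OX salt and 4.21, 5.07 and 5.2 CPM in OX mock, against 3.55, 15.8 and 9.75 CPM in WT salt and 1.92, 3.09 and 2.17 CPM in WT mock. Its interaction of -5.38 (SE 0.77, adjusted p = 0.0574, 0.0227 with the block) rests on low levels in OX salt, where 3 counts in a library are worth 0.243 to 0.264 CPM.

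Receptor genes and a phenylpropanoid gene had a smaller or absent salt change in the overexpressor. WAK1, a cell wall-associated receptor kinase, was raised in both genotypes. It rose to 1053, 873 and 801 CPM in OX salt, against 371, 331 and 409 CPM in OX mock (log2 1.3, adjusted p = 0.00048), and to 1426, 1304 and 1325 CPM in WT salt, against 239, 213 and 247 CPM in WT mock (log2 2.54, adjusted p = 7.5e-06). Its interaction was -1.24 (SE 0.19, adjusted p = 0.0689, 0.0522 with the block). RLP50, a receptor-like protein gene, had 20.8, 27.1 and 24.1 CPM in OX salt and 19.8, 20.8 and 22 CPM in OX mock, against 37.5, 41 and 39.8 CPM in WT salt and 14.7, 12.4 and 13.9 CPM in WT mock. Salt and mock lay apart in wild type and overlapped in the overexpressor, with an interaction of -1.33 (SE 0.17, adjusted p = 0.0530, 0.0351 with the block). PAL4, an isoform of phenylalanine ammonia-lyase at the entry to the phenylpropanoid pathway, had 6.72, 4.58 and 8.69 CPM in OX salt and 8.73, 10.4 and 8.98 CPM in OX mock, against 18.5, 46.2 and 29.2 CPM in WT salt and 4.56, 5.67 and 3.53 CPM in WT mock. Its interaction was -3.26 (SE 0.47, adjusted p = 0.0574, 0.0330 with the block). The others of the 10 were the aspartyl protease gene AT3G51330 (-2.23, adjusted p with the block 0.0121), the TIR-NBS-LRR resistance gene AT5G45000 (-2.39, adjusted p with the block 0.0275), whose salt changes were log2 0.86 in the overexpressor and 3.25 in wild type, and AT5G57480, a P-loop nucleoside triphosphate hydrolase gene (-1.69, adjusted p with the block 0.0345).

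**Figure D2:**
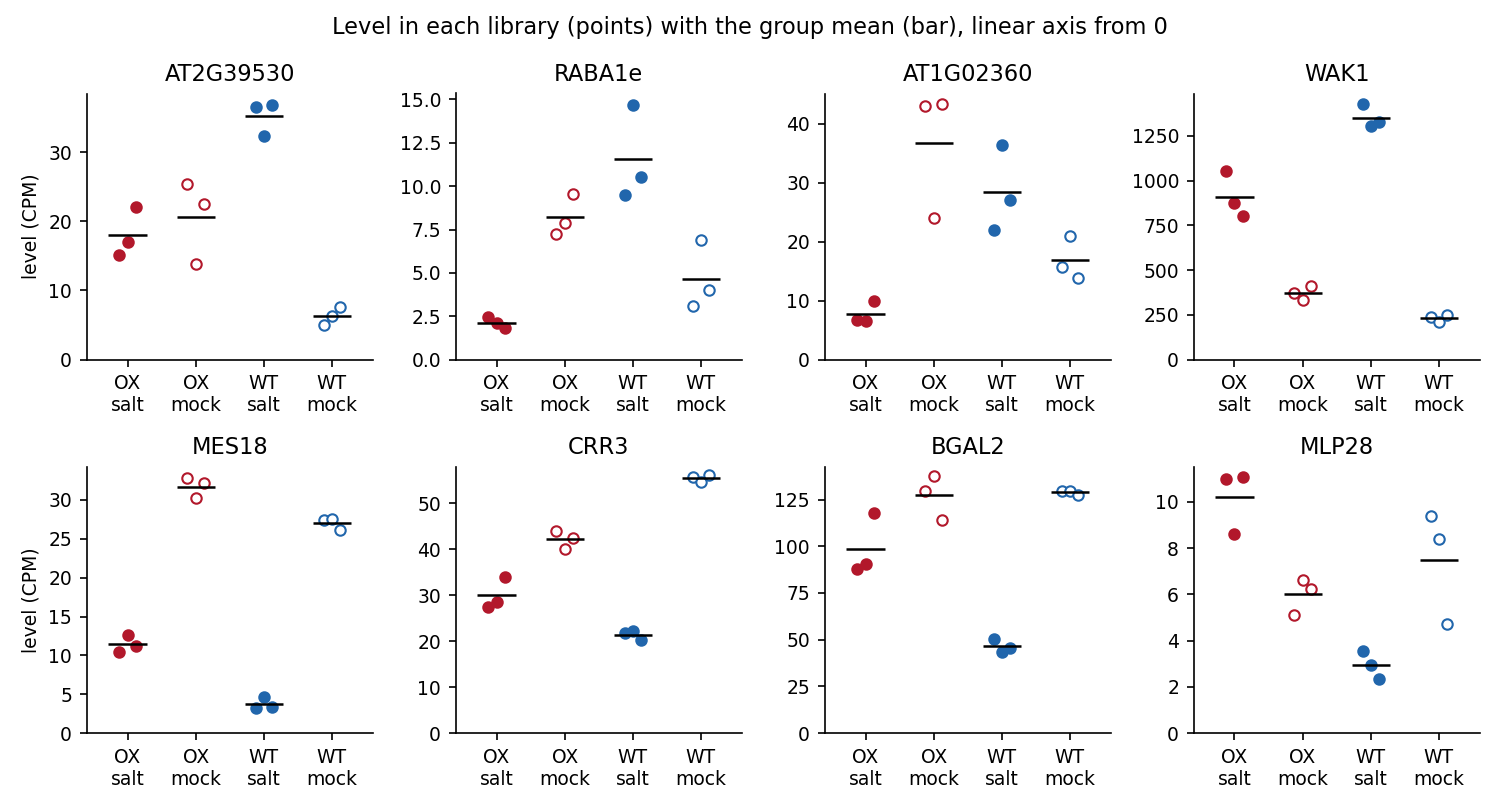
Level in CPM of 4 genes with an interaction below 0 (top) and 4 with one above 0 (bottom), by group, with OX in red, WT in blue, salt filled and mock open, and a bar at each mean of 3 libraries. RABA1e and AT1G02360 are lower in OX salt than in OX mock and higher in WT salt than in WT mock, while MES18 is lower with salt in both genotypes and more so in wild type.

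On the other side, the 10 genes with the smallest p above 0 had adjusted p from 0.0574 to 0.0776, and 5 were called with the block. In 9 of them both salt changes were negative with the smaller one in the overexpressor. MES18, a member of the methyl esterase family, fell to 10.4, 12.7 and 11.2 CPM in OX salt, against 32.8, 30.2 and 32.1 CPM in OX mock (2.78-fold, adjusted p = 0.00027). It fell to 3.21, 4.65 and 3.42 CPM in WT salt, against 27.5, 27.5 and 26.1 CPM in WT mock (7.17-fold, adjusted p = 6.9e-06). The mock groups lay close together and the salt groups apart, and the interaction was 1.37 (SE 0.20, adjusted p = 0.0574, 0.0471 with the block).

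A pair of the 10 serve the chloroplast NDH complex, which carries cyclic electron flow around photosystem I. CRR3, needed for its assembly, fell to 27.5, 28.5 and 34 CPM in OX salt, against 43.9, 40 and 42.5 CPM in OX mock, and to 21.8, 22.2 and 20.3 CPM in WT salt, against 55.7, 54.7 and 56.1 CPM in WT mock. Its interaction was 0.88 (SE 0.15, adjusted p = 0.0689). NDF4, a subunit gene, had 30.7, 37.6 and 47.6 CPM in OX salt and 47, 39.3 and 44.5 CPM in OX mock, which overlap, against 24.9, 24.8 and 24.2 CPM in WT salt and 71.8, 54.4 and 61 CPM in WT mock, with an interaction of 1.17 (SE 0.23, adjusted p = 0.0776).

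MLP28, of the major latex protein family, was the gene among the 10 with opposite signs. It had 11, 8.62 and 11.1 CPM in OX salt and 5.13, 6.63 and 6.22 CPM in OX mock, against 3.55, 2.94 and 2.35 CPM in WT salt and 9.38, 8.37 and 4.71 CPM in WT mock. Its fall in wild type passed the test (2.54-fold, adjusted p = 0.0023), its change in the overexpressor did not (log2 0.77, adjusted p = 0.058), and the interaction was 2.12 (SE 0.36, adjusted p = 0.0689, 0.0354 with the block). BGAL2, a beta-galactosidase that acts on cell wall sugars, had 87.6, 90.5 and 118 CPM in OX salt and 130, 138 and 114 CPM in OX mock, against 50.6, 43.5 and 45.6 CPM in WT salt and 129, 130 and 128 CPM in WT mock (interaction 1.1, SE 0.19). The rest had interactions of 0.76 (TIFY8, a TIFY-domain protein gene), 1.06 (AT5G19090 and AT2G03420), 1.12 (AT4G17360, a formyl transferase gene) and 1.61 (AT3G22142, a lipid-transfer protein gene). With the block, AT2G03420 (adjusted p = 0.0424), AT4G17360 (0.0491) and AT3G22142 (0.0295) were called. MLP28 has close relatives in tandem, and RLP50, AT5G45000, MES18, TIFY8, AT4G17360, AT2G03420, NDF4 and AT3G22142 overlap a gene on the opposite strand, so their counts may include reads of another gene.

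Gene groups were described by how many tested members had an unadjusted p under 0.05 in each direction, beside the 6.6% above 0 and 7.06% below 0 of all tested genes. Members said to lie below or above 0 are those at that p, unless a sentence names estimates or interactions. Protein folding in the endoplasmic reticulum gave the lowest median of the 28 groups with at least 3 tested members. Of 10 tested members, 7 lay below 0 and 0 above at an unadjusted p under 0.05. Estimates lay below 0 for 8 of the 10. The median interaction was -1.11, with median salt changes of 0.89 in the overexpressor and 1.88 in wild type. The median overexpressor minus wild-type difference was 0.40 in mock and -0.66 in salt. The 7 were the lumenal chaperone genes BIP1, BIP2 and BIP3, the lectin chaperone genes CNX1 and CRT1a, the disulfide isomerase gene PDIL1-1 and SDF2, with interactions from -1.08 to -2.75. BIP2 rose to 733, 462 and 387 CPM in OX salt, against 196, 191 and 219 CPM in OX mock (2.61-fold, adjusted p = 0.0073), and to 961, 1008 and 645 CPM in WT salt, against 107, 114 and 72.4 CPM in WT mock (8.91-fold, adjusted p = 4.6e-05). Its interaction was -1.77 (SE 0.37, adjusted p = 0.091), and with the block it was called with an adjusted p that rounds to 0.05. Within OX salt, replicate 1 was the highest for BIP2, and without that library BIP2 (-2.08, adjusted p = 0.0342), SDF2 (-1.32, adjusted p = 0.0342) and PDIL1-1 (-1.38, adjusted p = 0.0388) were called. PDIL1-1 rose 1.79-fold in the overexpressor and 3.93-fold in wild type, and SDF2 1.61-fold and 3.42-fold. Transcripts of the factors that switch these genes on had estimates near 0 or with wide errors. Counts per gene measure neither splicing nor the activity of these proteins. The membrane-bound factor gene BZIP28 (-0.12, SE 0.25), the spliced factor gene BZIP60 (0.11, SE 0.55) and NAC103 (0.37) had unadjusted p of 0.632, 0.841 and 0.565. BIP1 and BIP2 are near-identical copies and can share reads.

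Many salicylate and NHP defence genes rose in both genotypes, with larger estimates in wild type. Salt raised 12 of 21 tested members in the overexpressor and 18 in wild type, and lowered 0 in either. For the interaction, 8 lay below 0 at an unadjusted p under 0.05 and 0 above, with a median of -0.90 (-1.51 without WT mock replicate 2). The 3 with the smallest p act as brakes on the signal. NIMIN1 encodes an inhibitor of the salicylate co-receptor NPR1, DLO1 a salicylate hydroxylase and UGT76B1 a glycosyltransferase of salicylate and related signals. NIMIN1 rose to 14.4, 15.8 and 15.3 CPM in OX salt, against 3.14, 2.34 and 6.38 CPM in OX mock, and to 16.8, 23.1 and 17 CPM in WT salt, against 1.06, 0.644 and 0.619 CPM in WT mock. Its salt levels lay close together and its mock levels apart, with an overexpressor minus wild-type difference of log2 -0.32 in salt (adjusted p = 0.556) and 2.36 in mock (adjusted p = 0.059). The interaction was -2.68 (SE 0.47, adjusted p = 0.0689). DLO1 (-4.0, SE 0.83, adjusted p = 0.0894, called with the block at an adjusted p that rounds to 0.05) and UGT76B1 (-3.38, SE 0.75) also had higher means in OX mock than in WT mock, at 4.17 ± 2.89 against 0.541 ± 0.372 CPM for DLO1 and 15.8 ± 9.36 against 4.52 ± 2.58 CPM for UGT76B1 (SD, n = 3 each).

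WRKY genes leaned the same way. Of 58 tested family members, 19 lay below 0 and 0 above, with a median of -0.40 (-0.25 without WT salt replicate 3) and median salt changes of 0.45 in the overexpressor and 0.81 in wild type. WRKY31 had 1.87, 1.58 and 4.18 CPM in OX salt and 4.29, 5.27 and 4.49 CPM in OX mock, against 6.62, 18.5 and 12.6 CPM in WT salt and 1.25, 2.96 and 1.73 CPM in WT mock. It rose 6.31-fold in wild type (adjusted p = 0.0012) and had an interaction of -3.53 (SE 0.65, adjusted p = 0.0744, 0.0295 with the block). WRKY72 fell 3.05-fold in the overexpressor (adjusted p = 0.0197) and WRKY61 stayed under 5 CPM in every library. Members tied to senescence were among the 19, such as WRKY75 (-2.53), WRKY45 (-1.69), WRKY54 (-1.20), WRKY6 (-0.92) and WRKY70 (-0.72). The WRKY and senescence groups share members, and WRKY54 is counted in both.

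Camalexin genes lay lower in OX salt than in WT salt. Of 17 tested members of the glucosinolate and camalexin group, 4 lay below 0 and 0 above, with a median of -0.35. That median moved by over 1.5 times without any of 6 libraries, to -0.56 without OX salt replicate 1, -0.53 and -0.19 without OX mock replicates 1 and 3, -0.16 without WT salt replicate 2, and -0.19 and -0.21 without WT mock replicates 1 and 3. CYP71A13, which makes the nitrile precursor of camalexin, had 43.1, 42 and 48.6 CPM in OX salt and 5.67, 2.83 and 19.7 CPM in OX mock, against 282, 676 and 394 CPM in WT salt and 2.44, 12.2 and 3.34 CPM in WT mock. It rose 74.9-fold in wild type (adjusted p = 0.00031), its level in salt was lower in the overexpressor (log2 -3.34, adjusted p = 0.0345), and its interaction was -3.99 (SE 1.01, adjusted p = 0.125). PAD3, which closes the pathway, had 102, 171 and 164 CPM in OX salt and 29, 28.2 and 59.2 CPM in OX mock, against 501, 964 and 626 CPM in WT salt and 14.6, 54.3 and 16.4 CPM in WT mock, with an interaction of -2.71 (SE 0.72, adjusted p = 0.139, 0.0426 with the block). Each WT salt library of both genes lay above each OX salt library. The other members below 0 at an unadjusted p under 0.05 were MYB122 (-3.06) and CYP79B2 (-2.22). Over all 17 tested members, 11 estimates lay below 0.

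Of 26 tested genes that mark or regulate senescence, 8 lay below 0 and 0 above, with a median of -0.71 (-0.42 without OX mock replicate 2). Salt raised 5 and lowered 2 in the overexpressor, and raised 13 and lowered 3 in wild type. DIN2, a sugar-starvation and dark-induced beta-glucosidase gene, had 0.597, 0.352 and 1.23 CPM in OX salt and 0.919, 0.293 and 0.709 CPM in OX mock, against 14.2, 42.3 and 25.6 CPM in WT salt and 1.32, 1.48 and 0.248 CPM in WT mock (interaction -4.60, SE 1.01, adjusted p = 0.1). SAG13 had 23, 31.5 and 35.1 CPM in OX salt and 13.3, 12.6 and 25.7 CPM in OX mock, against 76.9, 220 and 160 CPM in WT salt and 15.4, 22 and 15.8 CPM in WT mock (-2.31, SE 0.54, adjusted p = 0.109). For both genes salt stood apart in wild type and overlapped mock in the overexpressor. The late marker SAG12 had 0 counts in every library. The NAC regulators ORE1 (-1.13, SE 0.59, adjusted p = 0.440) and NAP (-0.99, SE 0.55, adjusted p = 0.475) had overlapping changes, and NYE1, which starts chlorophyll breakdown, had -0.38 (adjusted p = 0.79). In the NAC family 5 of 64 tested members lay below 0 and 2 above, close to the share over all genes.

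**Figure D3:**
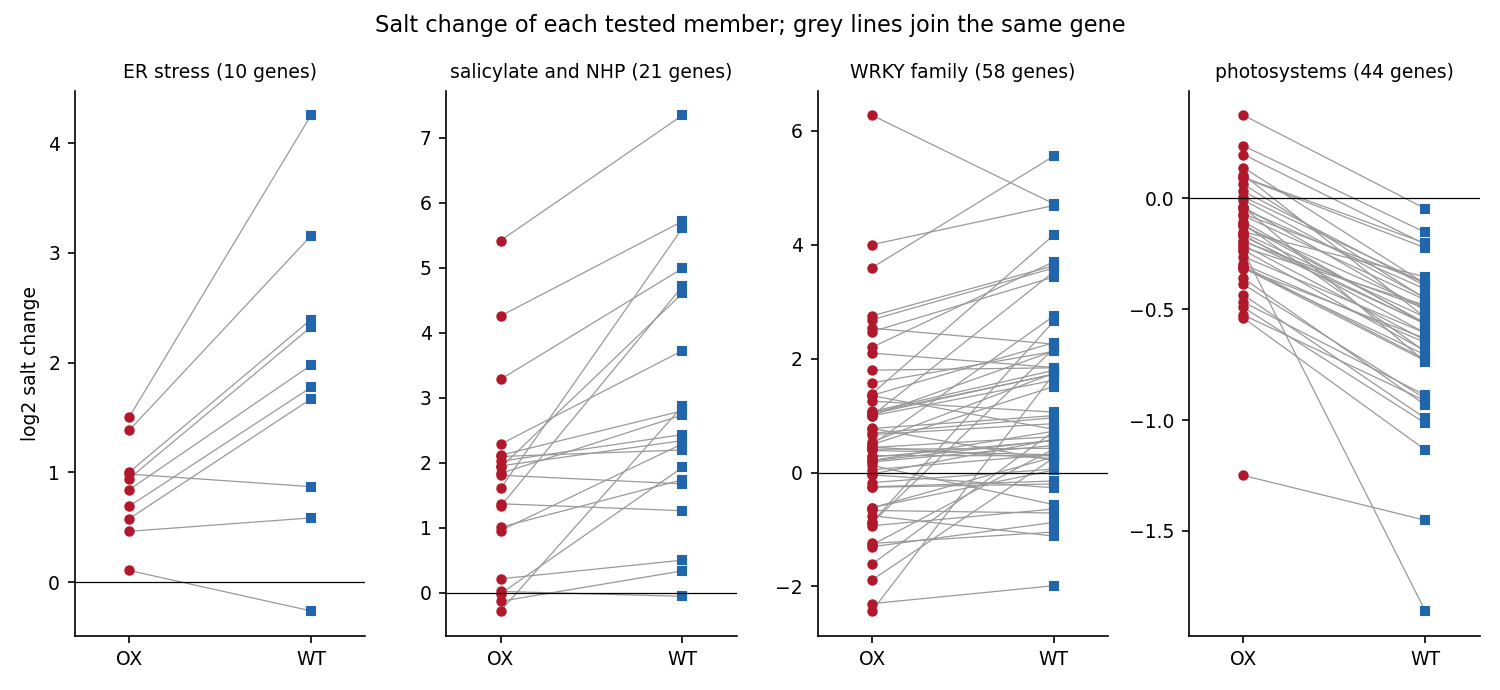
Log2 salt change of each tested member of 4 groups in overexpressor (OX) and wild-type (WT) leaves, with a grey line for each gene. The 7 ER lines named in the text and most salicylate lines climb to the wild-type side, and WRKY genes spread widely. All 44 members of the photosystem group, which includes RCA for Rubisco activase, sit lower in wild type.

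Photosynthesis genes had the more negative salt change in wild type. All 44 tested members of the light-harvesting and photosystem group had an interaction above 0, whereas 45.6% of all tested genes lay below 0. Their interactions ran from 0.20 to 1.62, with a median of 0.42. At an unadjusted p under 0.05, 9 lay above 0 and 0 below. Salt lowered 4 of the 44 in the overexpressor (LHCB4.3, PSAN, PSBO2 and RCA) and 33 in wild type. RCA encodes Rubisco activase, which is not a photosystem protein. The median salt changes of the group were -0.16 in the overexpressor and -0.57 in wild type. PSAN, a subunit of photosystem I, fell to 637, 869 and 991 CPM in OX salt, against 1042, 1339 and 1250 CPM in OX mock, and to 587, 672 and 630 CPM in WT salt, against 1380, 1394 and 1373 CPM in WT mock (interaction 0.59, SE 0.23, adjusted p = 0.289). LHCA4, a photosystem I antenna protein gene, had 2879, 2836 and 3430 CPM in OX salt and 2778, 3627 and 3429 CPM in OX mock, which overlap, against 2337, 2524 and 2191 CPM in WT salt and 3308, 3575 and 3561 CPM in WT mock. Genes of this group are regulated together, so they are not 44 separate observations.

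Chlorophyll synthesis and water channels lay on the same side. Of 15 tested chlorophyll synthesis genes, 4 lay above 0 and 0 below, with a median of 0.50. CHLM, the magnesium-protoporphyrin methyltransferase gene, averaged 201 ± 33.1 CPM in OX salt and 209 ± 21.8 CPM in OX mock, against 153 ± 6.08 CPM in WT salt and 260 ± 19.0 CPM in WT mock (SD, n = 3 each). Its interaction was 0.70 (SE 0.20, adjusted p = 0.155). CRD1, CHLD and GUN5 were the other 3. Of 17 tested aquaporin genes, 3 lay above 0 and 0 below, with a median of 0.56. TIP2;2, a channel of the vacuolar membrane, fell 2.14-fold in the overexpressor and 3.14-fold in wild type, and PIP2;2 and PIP2;5 were the others. In the chlorophyll breakdown group, HCAR (0.74) lay above 0 and NYE2 (-1.52) below.

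The summed guard cell and epidermis markers and vascular markers overlapped between the genotypes in mock leaves, and in salt the vascular sums overlapped while the guard cell and epidermis sums lay apart. The 7 guard cell and epidermis markers summed to 551 to 735 CPM in OX salt and 475 to 604 CPM in OX mock, against 296 to 499 CPM in WT salt and 501 to 533 CPM in WT mock. The 6 vascular markers summed to 613 to 742 CPM in OX salt and 975 to 1070 CPM in OX mock, against 639 to 672 CPM in WT salt and 974 to 1190 CPM in WT mock. Their median interactions were 0.53 and 0.49, and 0 of 7 and 1 of 6 (PP2-A1, a phloem protein gene) lay above 0 at an unadjusted p under 0.05. The part of tissue makeup in the interaction was not tested.

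**Figure D4:**
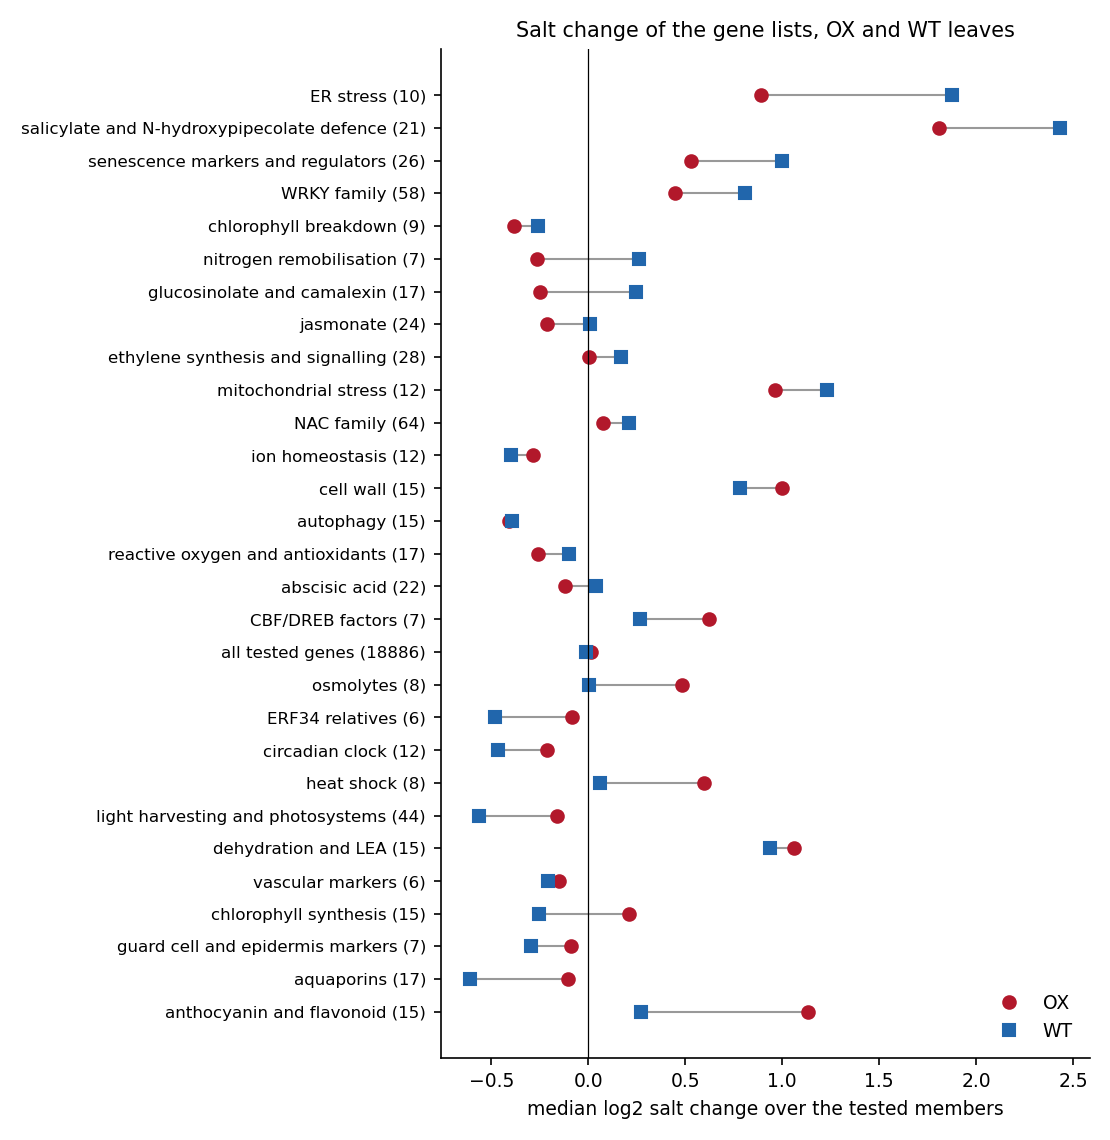
Median log2 salt change over the tested members of each gene group (number in brackets) in overexpressor (red circle) and wild-type leaves (blue square), ordered by the median interaction with the lowest at the top. The 2 markers coincide for all tested genes, whereas ER stress stands at 0.89 and 1.88 and light harvesting and photosystems at -0.16 and -0.57.

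Among genes usually read as the salt and drought response itself, some groups had members at an unadjusted p under 0.05 and others had 0. Of all tested genes, 13.7% passed it. Of 15 tested dehydration and late embryogenesis genes, 1 lay above 0 and 1 below. The median of this group was 0.46, with 5 of the 15 estimates below 0, and it ran from -0.26 to 0.89 without a library. COR15A, which protects chloroplast membranes, had 57.4, 28.2 and 40.9 CPM in OX salt and 7.12, 26.3 and 14.6 CPM in OX mock, against 9.82, 18.9 and 9.58 CPM in WT salt and 9.51, 25.6 and 10.5 CPM in WT mock (1.66, adjusted p = 0.36). RD20, a caleosin gene, had -0.81 (adjusted p = 0.37). RD29A had 0.01 (SE 0.75, adjusted p = 1), with mock libraries that spread from 68.7 to 196 CPM in the overexpressor and from 35.1 to 107 CPM in wild type. RD29B had -1.62 (SE 0.76, adjusted p = 0.384) and ERD10 0.78 (adjusted p = 0.65). Of 22 abscisic acid genes, 10 had estimates below 0, and the median was 0.01. At an unadjusted p under 0.05, 3 of them lay below 0 and 0 above. They were the phosphatase genes HAI1 and ABI2, which damp the hormone's signal, and ABA3 of its synthesis. HAI1 had 4.7, 8.09 and 6.81 CPM in OX salt and 4.59, 3.41 and 1.34 CPM in OX mock, against 17.4, 32.5 and 33.7 CPM in WT salt and 2.25, 1.68 and 2.91 CPM in WT mock, an interaction of -2.54 (SE 0.59, adjusted p = 0.108). It rose 12.2-fold in wild type, while its change in the overexpressor did not pass (log2 1.06, adjusted p = 0.102). Of 7 CBF/DREB factors, 8 osmolyte genes and 6 relatives of ERF34, 0 passed an unadjusted p under 0.05 on either side. Estimates lay below 0 for 3 of the CBF/DREB factors (median 0.04), 1 of the osmolyte genes (median 0.28) and 0 of the relatives of ERF34 (median 0.29), against 45.6% of all tested genes, and DREB2B rose in both genotypes (log2 1.92 in the overexpressor and 2.07 in wild type).

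Some members fell in the overexpressor and had a salt change near 0 in wild type. The cytosolic antioxidant genes CSD1, a superoxide dismutase, and APX1, an ascorbate peroxidase, were of this kind. CSD1 fell to 83.7, 94.6 and 106 CPM in OX salt, against 239, 183 and 214 CPM in OX mock (2.23-fold, adjusted p = 0.0041), and had 228, 143 and 216 CPM in WT salt, against 235, 192 and 184 CPM in WT mock. APX1 averaged 480 ± 49.8 CPM in OX salt and 877 ± 131 CPM in OX mock, against 877 ± 120 CPM in WT salt and 855 ± 116 CPM in WT mock (SD, n = 3 each). Their interactions were -1.1 (SE 0.27, adjusted p = 0.118) and -0.91 (SE 0.23, adjusted p = 0.123). In the same group of 17, 4 lay below 0 and 1 above, the thylakoid ascorbate peroxidase gene TAPX (0.67). GDH2, a glutamate dehydrogenase of nitrogen remobilisation, fell 4.29-fold in the overexpressor (adjusted p = 0.0075), with an interaction of -1.89 (SE 0.55, adjusted p = 0.168). AHA2, a plasma membrane proton pump gene, fell 1.89-fold there (adjusted p = 0.0217), with an interaction of -1.24 (SE 0.32).

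Ethylene genes did not move as a block, with 3 of 28 tested members below 0 and 0 above. ORA59, a factor that joins ethylene and jasmonate signals, fell in both genotypes. It had 2.61, 1.85 and 2.38 CPM in OX salt and 13.6, 16.5 and 16.4 CPM in OX mock, against 7.16, 11.1 and 11.9 CPM in WT salt and 24.3, 25.8 and 25.4 CPM in WT mock. Its interaction was -1.43 as a ratio (SE 0.27, adjusted p = 0.0776), while the fall counted in CPM was larger in wild type, so the direction holds on the log2 scale only. ACO4, which makes ethylene, rose 1.97-fold in wild type (adjusted p = 0.0065) with log2 0.11 in the overexpressor. Of 24 jasmonate genes, 0 passed an unadjusted p under 0.05 in either direction. Estimates lay below 0 for 19 of the 24, against 45.6% of all tested genes. Their median of -0.25 ran from -1.21 to 1.03 without a library. The median overexpressor minus wild-type difference of the group was -0.93 in salt and -0.56 in mock.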

How the data were processed

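Messenger RNA of 12 leaf libraries was sequenced, per the labels' protocols from poly(A)-selected RNA with a strand-specific kit. TopHat and Cufflinks, without versions, and the genome build TAIR10 are named per the submitters' processing notes. The authors deposited whole-number counts per gene in a table named for HTSeq; its strand setting is not given in the sources used here. They also deposited TMM-normalised signal values, which equal the counts divided by 1 constant per library and were used only as an alternative. All 12 columns of both tables were used, and 0 others hold samples. The 7 entries without a gene name (0.382% to 0.897% of counts) were left out.

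The counts were fitted with edgeR 4.0.16 (R 4.3.3; quasi-likelihood F test, robust; TMM factors, filter on low counts by group, 1 model of 4 groups, 8 residual degrees of freedom, common biological coefficient of variation 0.249), with the interaction and its 4 component contrasts. Benjamini-Hochberg adjustment ran over 18886 genes, with calls at an adjusted p under 0.05, and edgeR gave every adjusted p-value with no tool beside it. An SE is the absolute log2 change over the square root of F. The scripts were tested on simulated data. DESeq2 1.42.0 and limma 3.58.1 were alternatives. Replicates are independent biological samples per the labels, numbered in each group with no pairing stated; over log2 CPM, all 6 same-numbered pairs within a genotype deviated together (correlation above 0.1), so values with a block within genotype are given beside the main ones where the block changes a call. Salt changes by replicate number used log2(CPM + 0.5).

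Members, gene lists and rules were chosen with earlier results of these data known. Named are the 10 genes with the smallest interaction p in each direction among genes with a mean of 5 CPM in a group, 8 fixed genes, up to 3 members per list with the smallest p among those reaching 1 CPM, and the 3 genes with the smallest p called in both genotypes in opposite directions. Other list members were named after their values were seen. Of 421 listed genes, 3 were dropped because identifier and symbol disagreed. Of the 112 named genes, 30 overlap an opposite-strand gene and 4 a same-strand gene. Positions and promoters are from TAIR10.1. With 3 counts as the limit, a count of 0 in a library allows 0.163 to 0.288 CPM; such limits cover counting error only.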

Additional observations from a re-analysis of the deposited data

Results flagged for a closer look

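The interaction tests whether the salt change differs between the genotypes. In edgeR's fit, 106 genes were called in it with the replicate number as a block within genotype, against 0 without the block. Other settings without the block called up to 659 genes (DESeq2). Of the 106, 92 lay below 0 and 14 above. The block leaves 4 residual degrees of freedom, against 8 without it.

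For 12 of the named genes, all 3 salt changes within a replicate number went one way in the overexpressor and all 3 the other way in wild type. The share of all tested genes with this pattern was not counted. Most named genes were chosen by a small interaction p, so the count describes them and tests nothing. In 10 of the 12 the changes were negative in the overexpressor. Of these, RABA1e had an interaction of -3.25, AT1G02360 of -3.00, AT5G50760 of -5.38, PAL4 of -3.26, C4H of -1.40, PAL1 of -1.53 and WRKY31 of -3.53, and these 7 were called with the block. WRKY72 (-2.33), WRKY61 (-4.16) and ERF34 (-0.73) were not. In the other 2 the changes were positive in the overexpressor, MLP28 (2.12), which was called with the block, and CHLD (0.39), which was not. Without the block edgeR's adjusted p ran from 0.053 for RABA1e to 0.725 for ERF34, so the interaction passed for 0 of the 12.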

How the results depend on the processing

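Called genes (above 0, below 0) numbered 0 and 5 with DESeq2 size factors, 0 and 8 without the filter, 187 and 472 with DESeq2's test, 3 and 61 with limma-trend on TMM values, 111 and 268 with a replicate block shared by all groups, 14 and 92 with the block within genotype, and 0 to 17 and 0 to 57 without each library in turn. The shared block also gave 1925 genes above 0 at an unadjusted p under 0.05. Of 18 correlations between same-numbered libraries, 17 were above 0.1 and the lowest was -0.025. They do not set a number shared by all groups apart from pairing within a genotype. Upper quartile factors, the stricter filter, limma-voom, a fit that is not robust, thinning to equal depth and leaving out replicate 2 of every group gave 0 and 0. With the block within genotype, upper quartile factors gave 9 above 0, DESeq2's test 99 and 480, limma-trend 211 below 0, thinning 6 above 0, and leaving out a library 0 to 154 and 3 to 284. Of the 106 genes, 94 were also called by limma-voom with the block, 87.9% of its 107. Without each library, genes at an unadjusted p under 0.05 numbered 876 to 1472 above 0 and 1034 to 1507 below 0. The median interaction ran from -0.251 to -0.115 for genes that rose in the overexpressor, 0.161 to 0.270 for those that fell, -0.477 to -0.357 for those that rose in wild type and 0.340 to 0.433 for those that fell. Without replicate 2 of every group the first was -0.297. All 20 genes of smallest p kept their direction in all 24 alternatives. Directions turned for 8 of 111 named genes. RD29A was -0.017 with DESeq2 size factors and -0.018 with DESeq2's test, and -0.602 to 0.357 without a library. LOX2 was 0.042 without replicate 2. Without a library, CBF1 ran from -0.244 to 1.978, CBF3 from -0.273 to 1.673, DREB2B from -0.393 to 0.248, AT1G01250 from -0.275 to 0.706, TINY2 from -0.705 to 1.894 and TT7 from -0.117 to 3.504. The block under other factors, tests, thinning or left-out libraries and the omission of replicate 2 of every group were chosen after seeing the data. The median of 15 of 28 gene groups kept its sign in every alternative, among them ER stress, salicylate, WRKY, senescence, photosystems, chlorophyll synthesis and aquaporins. The cause of the differences between settings was not tested. Lower depth in the overexpressor limits low genes such as AT5G50760.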

Other observations

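The anthocyanin and flavonoid group had the highest median interaction of the groups described, 0.91, and its sign changed with 1 library and with the method. TT7, the flavonoid 3'-hydroxylase gene, had 74.6, 3.52 and 3.61 CPM in OX salt and 2.6, 4 and 4.02 CPM in OX mock, against 11.6, 5.12 and 3.02 CPM in WT salt and 6.54, 6.12 and 5.26 CPM in WT mock. Without OX salt replicate 1 the group's median was -1.88. With all 12 libraries it was -0.65 with limma-voom, -0.62 with limma-trend on the deposited TMM values, -0.13 with the shared block and -0.74 with the block within genotype. It was 0.04 without WT mock replicate 1 and reached 1.94 without WT salt replicate 1. The early phenylpropanoid genes of the group went the other way, with C4H at -1.40 (SE 0.35) and PAL1 at -1.53 (SE 0.47), both called with the block within genotype (adjusted p = 0.0455 and 0.0424).

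Of 12 tested mitochondrial stress genes, salt raised 6 in each genotype and lowered 1 in wild type. NDB2 and NDA2, alternative NADH dehydrogenase genes, rose in both genotypes. NDB2 averaged 144 ± 16.3 CPM in OX salt and 65.3 ± 10.8 CPM in OX mock, against 240 ± 40.3 CPM in WT salt and 57.2 ± 22.7 CPM in WT mock (SD, n = 3 each), with an interaction of -0.93. NDA2 had -0.91. Heat shock genes gave 0 of 8 below or above 0 at an unadjusted p under 0.05, and HSFA2 rose in both genotypes (log2 2.75 in the overexpressor and 1.71 in wild type). Of 12 circadian clock genes 0 lay on either side at an unadjusted p under 0.05, with GI at 0.54 and PRR7 at 0.39.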
